A study of Homo sapiens with 21 samples.

Results

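APOA1, APOA2, APOA5, APOB, APOC1, APOC3, APOE, APOH, APOM and MTTP encode 9 apolipoproteins and the transfer protein that loads lipid onto apolipoprotein B. These 10 genes were taken by symbol from a table of 19683 genes, and all 10 were present in it and passed the filter on low counts that left 12345 genes to test. The study followed HepG2/C3A cells, a clonal derivative of the human liver cancer line HepG2, labelled wild type, from flat culture into long-term spheroid culture. The control group was the 2D monolayer, and the 3D groups were spheroids collected at Days 3, 7, 10, 14, 21 and 28. Each of these 7 groups had 3 libraries, 21 in all. Spheroids were made by aggregating monolayer cells on ultra-low attachment plates and were then held in a ClinoReactor, a rotating culture vessel. The labels name no drug or genetic change in any group and give no culture time for the monolayer, so culture format and time in culture cannot be told apart in the comparisons with it. Replicates are titled as biological, with nothing on whether each was its own culture, so p-values measure only the spread between these libraries.

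Lipoproteins carry cholesterol and triglyceride through blood as droplets wrapped in phospholipid and apolipoproteins, and the liver secretes most of them. In hepatocytes the microsomal transfer protein MTTP lipidates apolipoprotein B to form VLDL, while APOA1 and APOA2 are the main structural proteins of HDL. The C apolipoproteins and APOA5 set how fast triglyceride is cleared by lipoprotein lipase, and APOE is a ligand for hepatic lipoprotein receptors.

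RNA was read by TempO-Seq, in which pairs of detector oligos anneal side by side on a transcript, are ligated, amplified and sequenced, so a gene's count is a count of ligated probes. Because probes differ between genes, levels were compared between groups for 1 gene and not between genes. Whether probes of abundant genes such as APOA2 were attenuated is not stated in the labels. Levels are in CPM, counts put on a common library total after TMM scaling, with the mean ± SD of a group (n = 3). The error beside a log2 fold change is its standard error (SE). Library totals ranged from 18760232 to 43443262 counts, and the lowest count of any member in any library was 110, for APOA5 in the monolayer. Day 28 replicate 1 had the lowest total and stood apart from the other Day 28 libraries: it held the highest level of its group for 8 of the 10 genes and the lowest for 1, APOB. The 8 hepatocyte markers checked were all above 10 CPM in every group, and the libraries' summed levels of them were 11014 to 12192 CPM (monolayer), 36512 to 38111 CPM (Day 3), 56204 to 65028 CPM (Day 7), 54096 to 57497 CPM (Day 10), 32540 to 40648 CPM (Day 14), 34434 to 42709 CPM (Day 21) and 31166 to 44380 CPM (Day 28). TAT, one of these markers, went against that sum at Day 3, with a log2 fold change of -2.0 against the monolayer (adjusted p = 2.38e-16). Its mean was 110 CPM in the monolayer, 45.9 at Day 7 and 43.0 at Day 10, and it was higher than the monolayer at Day 28 (log2 1.77, adjusted p = 1.86e-15). From Day 3 to Day 28 the markers were mixed, with 3 of 8 higher and 4 lower, against 29.5% and 30.2% of all genes. The higher ones were TAT (log2 3.76), FGB (log2 2.61) and AHSG (log2 1.05). Of 5 stellate cell and fibroblast markers, COL1A1, COL1A2 and DCN were at 0 in all libraries and the summed level stayed at or below 3.29 CPM, and the 4 endothelial markers summed to at most 1.02 CPM. The 5 leukocyte markers had a summed monolayer level of 64.7 to 69.3 CPM, and 220.1 to 224.9 at Day 3, nearly all of it LYZ and CD68, while PTPRC, which defines the lineage, was at 0 in all libraries. The 5 enterocyte markers, a set that includes APOA4, summed to 386 to 407 CPM in the monolayer and 773 to 796 at Day 7, with SI at 0 in all libraries and CDX2 at 0.211 CPM or less in group means. The 4 cholangiocyte markers had summed levels of 612 to 624 CPM (monolayer), 779 to 835 CPM (Day 3) and 412 to 462 CPM (Day 28), with KRT7 at 0.0441 CPM or less in group means. Most of that sum was SOX9, with means of 356, 718 and 411 CPM in these groups. The other markers fell: KRT19 had means of 61.4, 14.2 and 1.03 CPM and SPP1 of 199, 77.4 and 29.9 CPM. What cells with such markers gave to the members' levels was not tested. In bulk samples such as these, fewer cells of a type and less RNA per cell cannot be told apart.

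Promoter sequences from RefSeq (GRCh38.p14) matched 7 of the 10 genes by symbol. APOA1, APOB and APOC3 had no entry. Of these 7, the promoters of APOA5, APOH and APOA2 are shown, for a gene with one of the largest rises, a gene with an intermediate rise and the gene that ended below the monolayer. Each is written 5′ to 3′ on the strand of its gene, from 250 bases before to 50 bases after the annotated start. APOA5 lies at chr11:116792371-116792670, APOH at chr17:66229366-66229665 and APOA2 at chr1:161223579-161223878, all on the minus strand. Capitals mark GTTAAT, a motif of liver gene promoters, on either strand, and the TATA element TATAAA.
APOA5: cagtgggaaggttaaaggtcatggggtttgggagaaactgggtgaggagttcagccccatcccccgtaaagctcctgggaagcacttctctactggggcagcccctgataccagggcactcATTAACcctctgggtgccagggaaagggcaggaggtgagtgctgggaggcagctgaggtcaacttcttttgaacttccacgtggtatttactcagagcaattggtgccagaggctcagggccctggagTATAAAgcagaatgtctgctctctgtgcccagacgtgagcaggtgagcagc
APOH: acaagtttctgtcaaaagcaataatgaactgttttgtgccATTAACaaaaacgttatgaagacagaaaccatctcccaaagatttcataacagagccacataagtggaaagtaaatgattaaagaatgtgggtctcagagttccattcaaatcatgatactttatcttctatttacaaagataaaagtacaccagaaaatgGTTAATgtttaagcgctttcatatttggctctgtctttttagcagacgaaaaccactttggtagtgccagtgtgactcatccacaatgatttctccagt
APOA2: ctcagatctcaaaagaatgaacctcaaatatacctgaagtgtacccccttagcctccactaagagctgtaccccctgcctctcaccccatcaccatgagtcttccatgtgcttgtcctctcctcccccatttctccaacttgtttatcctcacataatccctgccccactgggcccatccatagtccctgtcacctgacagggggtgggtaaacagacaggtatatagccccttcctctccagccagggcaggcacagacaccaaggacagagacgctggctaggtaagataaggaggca
GTTAAT was present once in the APOA5 window, with its first base at position -129, and at positions -210 and -49 in the APOH window. Among the 7 windows it was in these 2 alone, and it was absent from those of MTTP, APOM, APOE, APOC1 and APOA2. MTTP and APOM also rose strongly in spheroids, so presence of the motif did not follow the size of the rise. It was found in 6.89% of all 27305 RefSeq promoter windows of this length. TATAAA, found in 12% of windows, was present in the APOA5 window alone among the 7, at position -1. AGGTCA, a core of nuclear receptor sites, was in 13.9% of windows and lay at positions -235 and -74 of the APOA5 window alone among the 7. CAAAGTCC, a core of HNF4 sites, and TTGCNNAA, a C/EBP motif, were in 1.21% and 10.6% of windows and in 0 of the 7. All motifs were searched on both strands, no 2 of those found overlapped, and a match of letters is not evidence of a bound factor.

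Spheroids held a higher relative level of nearly every member than the monolayer did, and 7 genes rose far more than the other 3. At Day 3 all 10 genes were called higher than in the monolayer by edgeR's quasi-likelihood test at an adjusted p under 0.05, against 40.1% of all genes tested called higher and 37.8% called lower. The members' median log2 fold change was 2.57, against 0.06 over all genes tested. All 10 were also higher at Day 7 (40.4% of all genes higher, 38.4% lower), at Day 10 (40% higher, 37.9% lower) and at Day 14 (38.7% higher, 35.7% lower). At Day 21 the count was 9 higher and 0 lower (39.3% and 35.1% of all genes), and APOA2 was not called. At Day 28 it was 9 higher and 1 lower, APOA2 (38.5% and 34.8%), with a median of 2.46 against 0.08 over all genes. APOC3, APOA5, MTTP, APOA1, APOH, APOB and APOM were the 7 highest folds on every day, the smallest of them 3.50-fold for APOM at Day 3. The largest fold among APOE, APOA2 and APOC1 on any day was 2.08, for APOE at Day 7. A call with at least a 2-fold rise was made for 7 of 10 genes at Day 3 and for the same 7 at Day 28, against 25.4% and 22% of all genes. For 9 of the genes each of the 18 spheroid libraries was above all 3 monolayer libraries, and for APOA2 this held for 13 of 18.

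**Figure D1:**
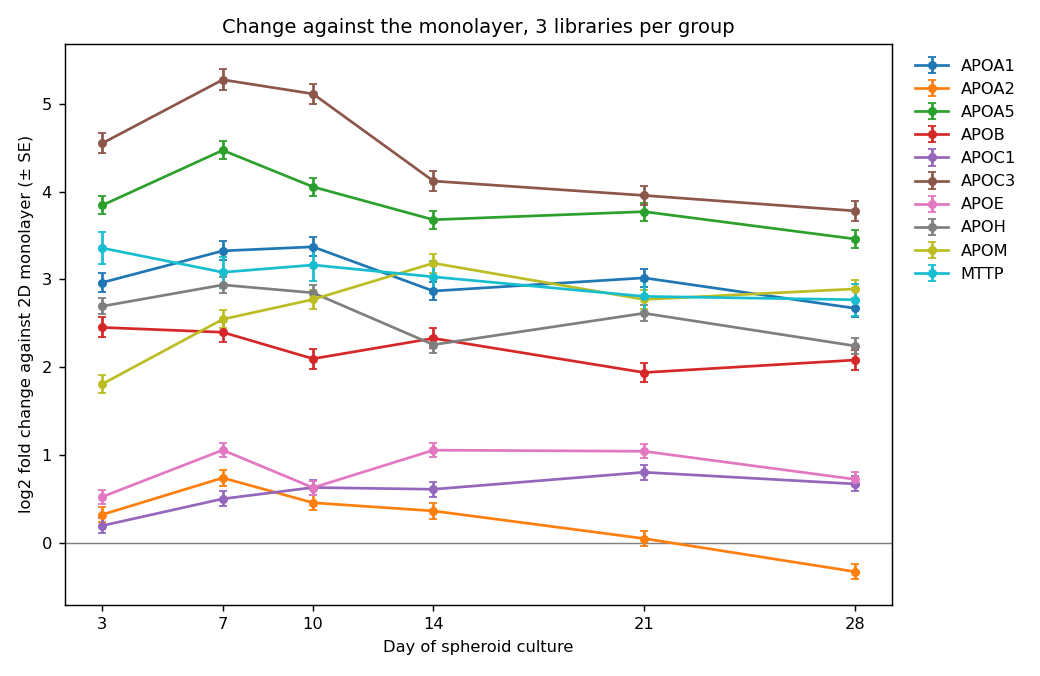
Log2 fold change of each gene against the 2D monolayer (y axis) by day of spheroid culture (x axis); points are edgeR estimates from 3 libraries per group and bars are standard errors. APOC3 is the uppermost line, with 5.28 at Day 7, and APOE, APOC1 and APOA2 form a separate lower band in which APOA2 ends at -0.33.

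APOB and MTTP, the pair that starts VLDL assembly, had their highest means on the first spheroid day sampled and were lower at Day 28. The means between did not fall steadily, and the step of APOB from Day 3 to Day 7 was not called (log2 -0.055, adjusted p = 0.776). APOB, the non-exchangeable structural protein of VLDL and LDL, measured 2474, 2521 and 2533 CPM in the monolayer and 13625, 14299 and 13259 CPM at Day 3. At Day 28 its libraries measured 9141, 10407 and 12290 CPM. All spheroid libraries lay above the monolayer, while neighbouring spheroid days overlapped throughout the order of means, from Day 21 (9614 ± 1474) up through Days 28, 10, 14 and 7 to Day 3 (13728 ± 528). The rise over the monolayer was 5.47-fold at Day 3 (log2 2.45 ± 0.11 SE, adjusted p = 7.95e-16) and 4.23-fold at Day 28 (adjusted p = 2.33e-14). From Day 3 to Day 28 APOB fell by 0.37 on the log2 scale (adjusted p = 0.00489), a call that was lost without Day 28 replicate 1 (adjusted p = 0.0764).

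MTTP had its widest spread between libraries at Day 3, with levels of 54.5, 72.5 and 50.5 CPM against 6.02, 6.49 and 4.75 CPM in the monolayer. At Day 28 its 3 libraries were close together, at 40.2, 40.0 and 37.8 CPM. The rise was 10.2-fold at Day 3 (log2 3.36 ± 0.18, adjusted p = 4.45e-13) and 6.81-fold at Day 28 (adjusted p = 1.59e-11). The order of its group means ran from the monolayer through Days 28, 21, 14, 7 and 10 to Day 3, and all neighbouring spheroid days overlapped. No step between consecutive days was called for MTTP, though that from Day 3 to Day 7 (log2 -0.28, adjusted p = 0.227) was called lower with no filter on low counts (0.0269), and only the span from Day 3 to Day 28 was, as a fall (log2 -0.59 ± 0.15, adjusted p = 0.00264). MTTP works as a heterodimer with P4HB, protein disulfide isomerase, whose level was 4.58 ± 0.56 CPM in the monolayer and 5.85 ± 1.17 at Day 3 (log2 0.34 ± 0.22 SE, adjusted p = 0.148, a gene singled out here after its values were seen). Its mean was under the 10 CPM required of genes named by their change in a list. A low probe count does not show that the transcript is scarce.

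**Figure D2:**
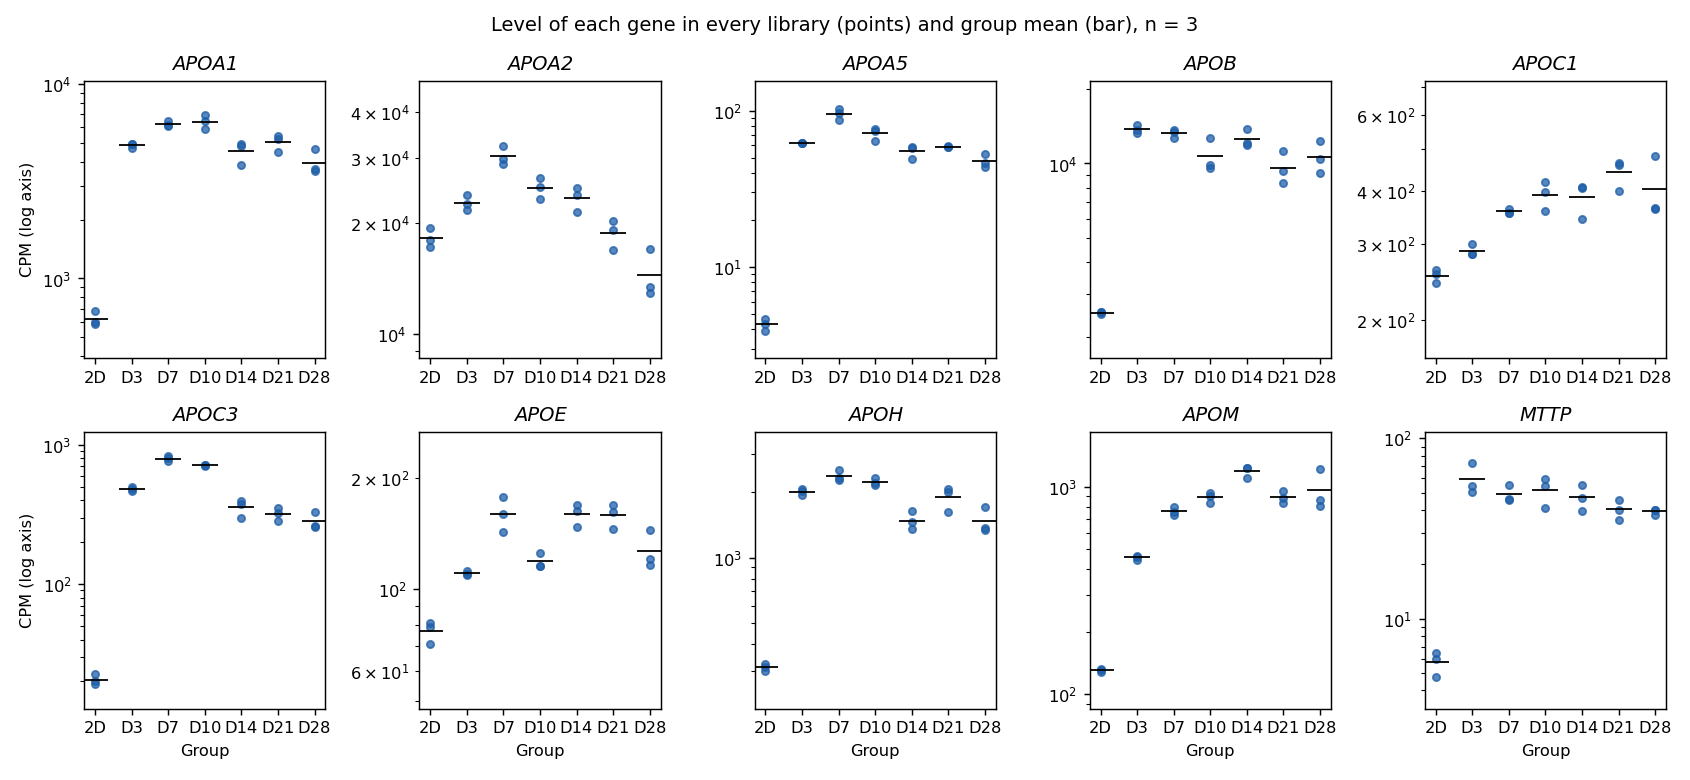
Level of each of the 10 genes in CPM on a logarithmic axis, by group (2D monolayer and spheroid Days 3 to 28); each point is 1 library and each bar a group mean of 3. The monolayer points lie below all spheroid points in every panel except APOA2, where Days 21 and 28 reach down to the monolayer's range or under it.

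Among the HDL genes, APOA1 and APOM rose strongly and on different schedules, and APOA2 rose little and then fell below its starting level. APOA1, the main HDL protein and activator of LCAT, measured 683, 597 and 583 CPM in the monolayer, 4920, 4714 and 4900 at Day 3 and 6495, 6928 and 5850 at Day 10. Day 10 was its highest mean, 6424 ± 543 CPM, and overlapped Day 7 (6222 ± 194). Every other spheroid day lay below these, and Days 28, 14, 3 and 21 overlapped in sequence. The fold over the monolayer was 7.80 at Day 3 (log2 2.96 ± 0.11, adjusted p = 5.27e-19), 10.3 at Day 10 (log2 3.37 ± 0.11, adjusted p = 4.65e-20) and 6.37 at Day 28 (adjusted p = 5.99e-18). Between Day 10 and Day 14 APOA1 fell by 0.50 on the log2 scale (adjusted p = 0.000129). Its fall from Day 3 to Day 28 (log2 -0.29, adjusted p = 0.0125) was lost without Day 28 replicate 2 or 3, with adjusted p-values of 0.117 to 0.126.

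APOM, the HDL carrier of sphingosine 1-phosphate, had the latest peak among the strongly raised genes. Its libraries measured 127, 132 and 131 CPM in the monolayer, 443, 461 and 465 at Day 3 and 1228, 1230 and 1100 at Day 14. No Day 3 library reached the Day 7 range, and no Day 7 library reached the Day 10 range. The Day 10, 21 and 28 libraries overlapped, and Day 28 replicate 1, at 1225 CPM, lay inside the Day 14 range. The fold over the monolayer was 3.50 at Day 3 (log2 1.81 ± 0.10, adjusted p = 5.54e-14), 9.09 at Day 14 (log2 3.18 ± 0.11, adjusted p = 2.48e-18) and 7.42 at Day 28 (adjusted p = 1.5e-17). APOM was 2.12-fold higher at Day 28 than at Day 3 (adjusted p = 1.5e-09), the largest rise of any member over that span.

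APOA2, the other major HDL protein, was first or second of all genes by raw count in every library, a rank of probe counts and not of transcript levels. It measured 19421, 17945 and 17160 CPM in the monolayer, 29770, 28825 and 32274 at Day 7 and 16972, 12902 and 13442 at Day 28. The Day 7 libraries were above, and the Day 28 libraries below, all those of the monolayer, while the Day 21 and monolayer libraries overlapped. The largest rise was 1.67-fold at Day 7 (log2 0.74 ± 0.09, adjusted p = 4.05e-09). At Day 28 APOA2 was 1.26-fold lower than in the monolayer (log2 -0.33 ± 0.09, adjusted p = 0.00109). With scaling by library total alone, which raised the median of all genes against the monolayer by 0.14 to 0.22 log2, this value was -0.12 and no longer passed (adjusted p = 0.114), while the Day 21 rise then did (log2 0.20, adjusted p = 0.0114).

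The regulators of triglyceride clearance held both the largest and one of the smallest changes. APOC3, an inhibitor of lipoprotein lipase and of remnant uptake, measured 22.7, 20.1 and 19.1 CPM in the monolayer, 469, 479 and 499 at Day 3, and 759, 803 and 827 at Day 7. At Day 14 it measured 377, 397 and 299 CPM, and at Day 28 it measured 331, 256 and 262. Day 7, Day 10 and Day 3 each held a range of their own, in that order from the top, and Days 14, 21 and 28 overlapped below them. The fold over the monolayer was 23.5 at Day 3 (log2 4.55 ± 0.11, adjusted p = 1.65e-21), 38.7 at Day 7 (log2 5.28 ± 0.12, adjusted p = 1.43e-22) and 13.7 at Day 28 (adjusted p = 6.75e-20). Between Day 10 and Day 14 it fell by 0.99 on the log2 scale (adjusted p = 5.07e-09), which was 1.99-fold and the largest step between consecutive days for any member.

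APOA5, which promotes triglyceride clearance and is scarce in plasma, followed APOC3 in time with smaller folds. Its libraries measured 4.66, 4.35 and 3.94 CPM in the monolayer, 61.8, 61.9 and 62.0 at Day 3 and 86.8, 96.9 and 102.9 at Day 7. Days 7, 10 and 3 again held separate ranges from the top down, and Days 14, 21 and 28 lay below. The fold was 14.4 at Day 3 (log2 3.84 ± 0.10, adjusted p = 7.89e-26), 22.2 at Day 7 (log2 4.47 ± 0.10, adjusted p = 2.01e-27), and at Day 28 the log2 value was 3.46 ± 0.10 (adjusted p = 2.54e-24). It fell by 0.42 on the log2 scale from Day 7 to Day 10 (adjusted p = 0.000239) and by 0.38 from Day 10 to Day 14 (adjusted p = 0.00034).

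APOC1, an inhibitor of CETP and of lipoprotein binding to receptors, changed least at Day 3, with 244, 255 and 261 CPM in the monolayer and 284, 285 and 300 at Day 3. The ranges did not overlap, and the rise was 1.14-fold (log2 0.19 ± 0.09, adjusted p = 0.0436). That call was lost with DESeq2's size factors in edgeR (adjusted p = 0.0755), with DESeq2 (0.0852) and in 13 of the 21 fits that each left out 1 library (0.0506 to 0.221). It held only without Day 10 replicate 1 or 3, Day 14 replicate 1 or 3, Day 21 replicate 3 or any Day 28 library. APOC1 kept a higher level later: it was 1.74-fold over the monolayer at Day 21 (442 ± 36.0 CPM, log2 0.80 ± 0.09, adjusted p = 1.85e-09) and 1.59-fold at Day 28. Libraries of Days 7 to 28 overlapped in the order of their means.

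APOE rose moderately and without a single peak. Its libraries measured 81.0, 71.2 and 79.1 CPM in the monolayer, 110.1, 109.5 and 112.0 at Day 3, and 160, 142 and 178 at Day 7. Libraries of Day 7 (160 ± 17.7), Day 14 (160 ± 11.2) and Day 21 (158 ± 12.0) overlapped. The means at Day 10 (119 ± 5.57) and Day 28 (127 ± 15.1) lay under those, and libraries of Days 10 and 28 overlapped each other. The highest Day 28 library, at 144.4 CPM, was above the lowest of Day 7, at 142.5 CPM. The fold over the monolayer was 1.44 at Day 3 (log2 0.52 ± 0.08, adjusted p = 8.78e-07), 2.08 at Day 7 (log2 1.05 ± 0.08, adjusted p = 2.09e-13) and 1.65 at Day 28 (adjusted p = 2.1e-09). Its fall from Day 7 to Day 10 (log2 -0.43, adjusted p = 0.000138) was matched in size by a rise from Day 10 to Day 14 (log2 0.43, adjusted p = 4.4e-05).

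APOH, a phospholipid-binding plasma protein also called β2-glycoprotein I, measured 300, 321 and 311 CPM in the monolayer, 1944, 2065 and 2026 at Day 3 and 2275, 2545 and 2321 at Day 7. At Day 14 its libraries measured 1454, 1645 and 1351 CPM, at Day 21 they measured 2082, 2006 and 1621, and at Day 28 they measured 1705, 1366 and 1339. Days 7 and 10 overlapped above all other days, and Days 28, 14, 21 and 3 overlapped in sequence below them. The fold was 6.47 at Day 3 (log2 2.69 ± 0.09, adjusted p = 4.86e-21), 7.66 at Day 7 (adjusted p = 7.57e-22) and 4.73 at Day 28 (adjusted p = 4.3e-19). APOH fell from Day 10 to Day 14 (log2 -0.59, adjusted p = 1.66e-06), rose to Day 21 (log2 0.36, adjusted p = 0.00244) and fell again to Day 28 (log2 -0.37, adjusted p = 0.00214).

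Within spheroid culture all 10 genes changed among the 6 days in a joint test, against 76.2% of all genes. Day 7 held the highest mean for 5 genes (APOA2, APOA5, APOC3, APOE and APOH), Day 3 for APOB and MTTP, Day 10 for APOA1, Day 14 for APOM and Day 21 for APOC1. Day 28 held the lowest spheroid mean for 6 genes, and Day 3 for APOC1, APOE and APOM. From Day 3 to Day 7, 8 genes were called higher and 0 lower, against 10.6% and 8.76% of all genes, with APOM (log2 0.74, adjusted p = 1.03e-05), APOC3 (0.72, adjusted p = 7.28e-06) and APOA5 (0.63, adjusted p = 1.4e-06) at the top and APOB and MTTP not called. Of all genes called in this comparison 54.8% were higher, and 39.4% with scaling by library total alone. The APOH rise (log2 0.24, adjusted p = 0.0489) was lost with that scaling (0.0634) and in 12 of 21 fits that left out 1 library (0.054 to 0.177), and it held only without Day 7 replicate 1, Day 10 replicate 3, Day 14 replicate 2 or 3, Day 21 replicate 1 or 3 or any Day 28 library. The APOA1 rise (log2 0.36, adjusted p = 0.0107) was lost without Day 7 replicate 3 (0.0504), and the APOC1 rise (log2 0.31, adjusted p = 0.0115) without Day 3 replicate 1 or 2 (0.0507 to 0.0524).

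After Day 7 most steps were downward or not called. From Day 7 to Day 10, 0 genes were called higher and 4 lower, APOA2, APOA5, APOB and APOE, against 13.9% and 13.5% of all genes. The APOB step (log2 -0.30, adjusted p = 0.0402) was lost with scaling by library total (0.0881) and in 15 of 21 fits that left out 1 library (0.0505 to 0.224), all but those without Day 10 replicate 3, Day 14 replicate 1 or 3, Day 21 replicate 2 or 3 or Day 28 replicate 3. The APOA2 step (log2 -0.28, adjusted p = 0.0142) was lost without Day 7 replicate 3 or Day 10 replicate 3 (0.0855 to 0.0881), and APOM, not called here (log2 0.23, adjusted p = 0.093), was called higher without Day 28 replicate 1 or 2 (0.00131 to 0.0317), with no filter on low counts (0.0047) and with only the groups compared in the fit (0.00356). That last fit also called APOC3 lower (0.0254), at log2 -0.16 with an adjusted p of 0.229 over all groups.

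From Day 10 to Day 14 the set divided: APOE and APOM were the 2 genes called higher, and APOA1, APOA5, APOC3 and APOH the 4 called lower, against 24% and 24.3% of all genes. The other 4 were not called, and of these APOB (log2 0.23, adjusted p = 0.0801) was called higher without Day 10, Day 21 or Day 28 replicate 3 (0.00311 to 0.0441) and with no filter on low counts (0.000941). From Day 14 to Day 21 only APOH was called higher, and APOA2, APOB and APOM were called lower, against 13.9% and 12.7%. The APOB step (log2 -0.39, adjusted p = 0.00888) was lost without Day 14 replicate 3 or Day 21 replicate 2 (0.0573 to 0.0612), and the APOA2 step (log2 -0.32, adjusted p = 0.00681) without Day 21 replicate 3 (0.0512). APOC1, not called (log2 0.20, adjusted p = 0.0932), was called higher without Day 21 replicate 3 or Day 28 replicate 1 (0.0255 to 0.034) and with no filter (0.022), and APOC3 (log2 -0.16, adjusted p = 0.223) was called lower without Day 14 replicate 3 (0.0227).

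From Day 21 to Day 28, 0 genes were called higher and 5 lower, APOA1, APOA2, APOA5, APOE and APOH, against 10% and 14% of all genes. Of all genes called in that comparison 41.8% were higher, and 55.6% with scaling by library total alone. APOA2 had the largest of these falls (log2 -0.38, adjusted p = 0.0017), which was lost with only the groups compared in the fit (0.0646), as was that of APOA1 (0.0671). The APOA1 fall (log2 -0.35, adjusted p = 0.0113) was lost without Day 21 replicate 1 or 2 or Day 28 replicate 2 or 3 (0.0542 to 0.0784), and the APOA5 fall (log2 -0.31, adjusted p = 0.0065) without Day 28 replicate 2 (0.0622). Without Day 28 replicate 1, APOC1 (log2 -0.13, adjusted p = 0.281) and APOC3 (log2 -0.18, adjusted p = 0.196) were called lower as well, at 0.00587 and 0.0122.

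Over the whole span from Day 3 to Day 28, 3 genes were called higher and 7 lower, against 29.5% and 30.2% of all genes, with a median log2 fold change of -0.38 against 0.00 over all genes. The higher ones were APOM (log2 1.08), APOC1 (0.48, adjusted p = 2.22e-05) and APOE (0.20, adjusted p = 0.034). The APOE call was lost without Day 28 replicate 1 or any Day 3 library (adjusted p of 0.056 to 0.2). The largest falls were those of APOC3 (log2 -0.77, adjusted p = 1.95e-07) and APOA2 (log2 -0.65, adjusted p = 1.16e-07), and both were larger without Day 28 replicate 1, at -0.88 and -0.76.

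**Figure D3:**
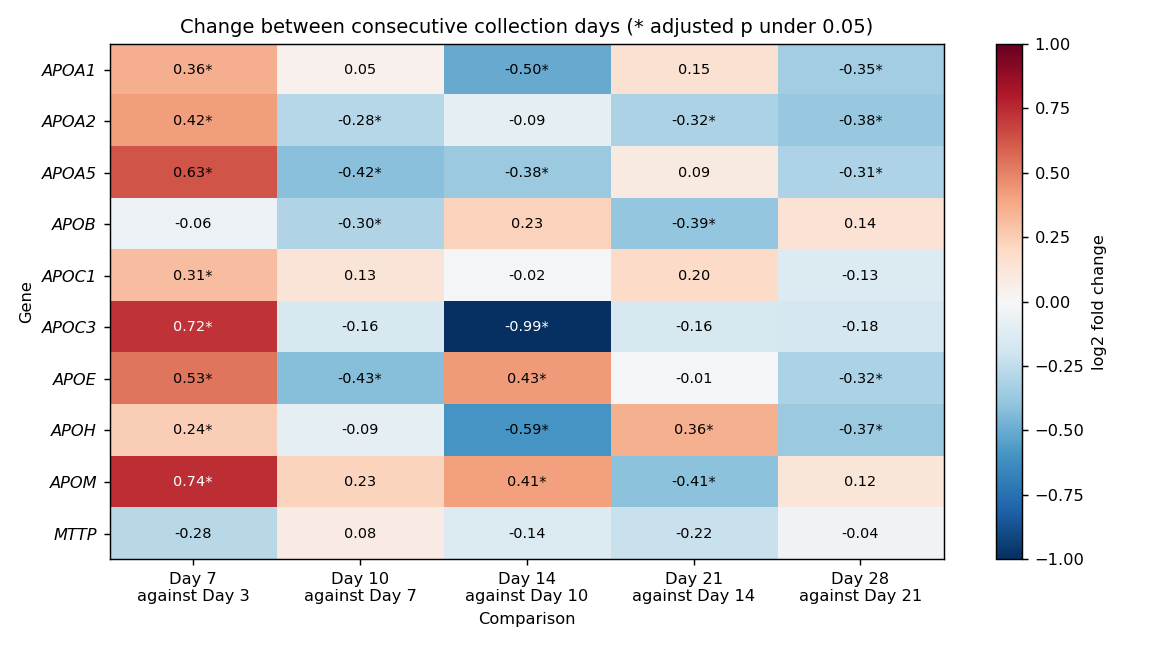
Log2 fold change of each gene (rows) between consecutive collection days (columns), with red for a rise and blue for a fall; an asterisk marks an edgeR adjusted p under 0.05 and each group has 3 libraries. The Day 7 against Day 3 column is mostly red, and the darkest cell is the fall of APOC3 by 0.99 at Day 14.

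As a share of probe counts and not of transcripts, the 10 genes together took 1.99% ± 0.08 of all counts in the monolayer, 4.67% ± 0.06 at Day 3, 5.48% ± 0.18 at Day 7 and 3.36% ± 0.14 at Day 28. APOA2 alone took 1.63% ± 0.08 in the monolayer and 1.5% ± 0.17 at Day 28. The other 9 genes rose from 0.353% ± 0.004 in the monolayer to 2.30% ± 0.05 at Day 3 and stood at 1.87% ± 0.12 at Day 28.

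**Figure D4:**
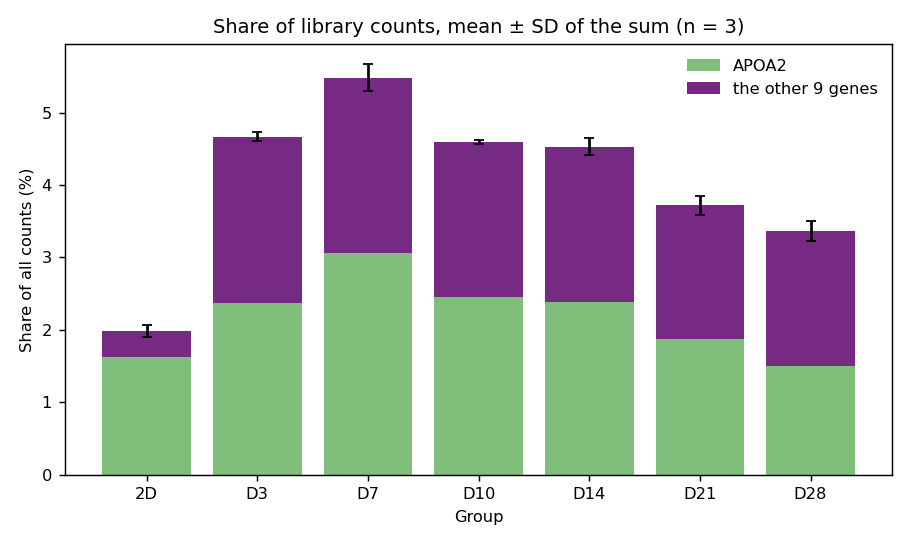
Share of all library counts taken by the 10 genes (y axis, percent) by group, stacked as APOA2 and the other 9 genes; bars are means of 3 libraries and error bars the SD of the sum. The total peaks at 5.48% at Day 7, and from Day 3 to Day 28 the segment of the other 9 genes goes from 2.30% to 1.87% and that of APOA2 from 2.36% to 1.5%.

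APOA5, APOC3 and APOA1 lie in a cluster on chromosome 11 and APOE and APOC1 in one on chromosome 19, and the neighbouring genes did not all move with the members. In GENCODE coordinates on GRCh38, APOA5 (chr11:116789367-116792420), APOA4, APOC3 (chr11:116829706-116833072) and APOA1 (chr11:116835751-116837950) stand in that order, with gaps of 28279, 6399 and 2678 bases. APOA4, which is no member, rose with them at Day 3 (log2 3.42 ± 0.17, adjusted p = 5.55e-12). Of the flanking genes at Day 3, ZPR1, next to APOA5, fell by 1.44 on the log2 scale (adjusted p = 1.04e-12) and SIK3, next to APOA1, fell by 0.70 (adjusted p = 2.59e-06), while BUD13 was not called (log2 -0.12, adjusted p = 0.279). Farther on, SIDT2 rose (log2 1.48, adjusted p = 1.26e-07), TAGLN fell by 3.08 (adjusted p = 1.52e-11), PAFAH1B2 fell by 0.28 (adjusted p = 8.87e-05) and PCSK7 was not called (log2 0.16, adjusted p = 0.398). At Day 28 the 4 apolipoprotein genes remained higher than in the monolayer, with log2 values of 3.46 for APOA5, 2.98 for APOA4, 3.78 for APOC3 and 2.67 for APOA1, ZPR1 remained lower (log2 -1.24, adjusted p = 5.61e-11), and SIK3 was higher (log2 0.37, adjusted p = 0.00423).

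On chromosome 19, APOE (chr19:44905754-44909393) and APOC1 (chr19:44914247-44919349) are 4853 bases apart, followed by APOC4 and APOC2. APOC2, the activator of lipoprotein lipase, rose more at Day 3 than either member (log2 1.13 ± 0.11, adjusted p = 1.69e-11) but fell by 0.55 from Day 3 to Day 28 (adjusted p = 3.19e-05), while APOC1 and APOE rose over that span. TOMM40, just upstream of APOE, rose (log2 1.02, adjusted p = 1.48e-05), as did BCAM (log2 1.49, adjusted p = 3.83e-11). RELB fell by 3.94 (adjusted p = 4.82e-14), and APOC4 (log2 0.35, adjusted p = 0.56), NECTIN2 (log2 -0.12, adjusted p = 0.361) and CLPTM1 (log2 0.21, adjusted p = 0.249) were not called. Of the members, APOA1 overlaps the antisense gene APOA1-AS, APOM overlaps BAG6 and MTTP overlaps TRMT10A, each on the opposite strand. APOE and APOC1 both overlap AC011481.3, annotated on their own strand, and APOB overlaps AC010872.1 on the opposite strand. The positions of the detector oligos are not given in the sources used here.

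**Figure D5:**
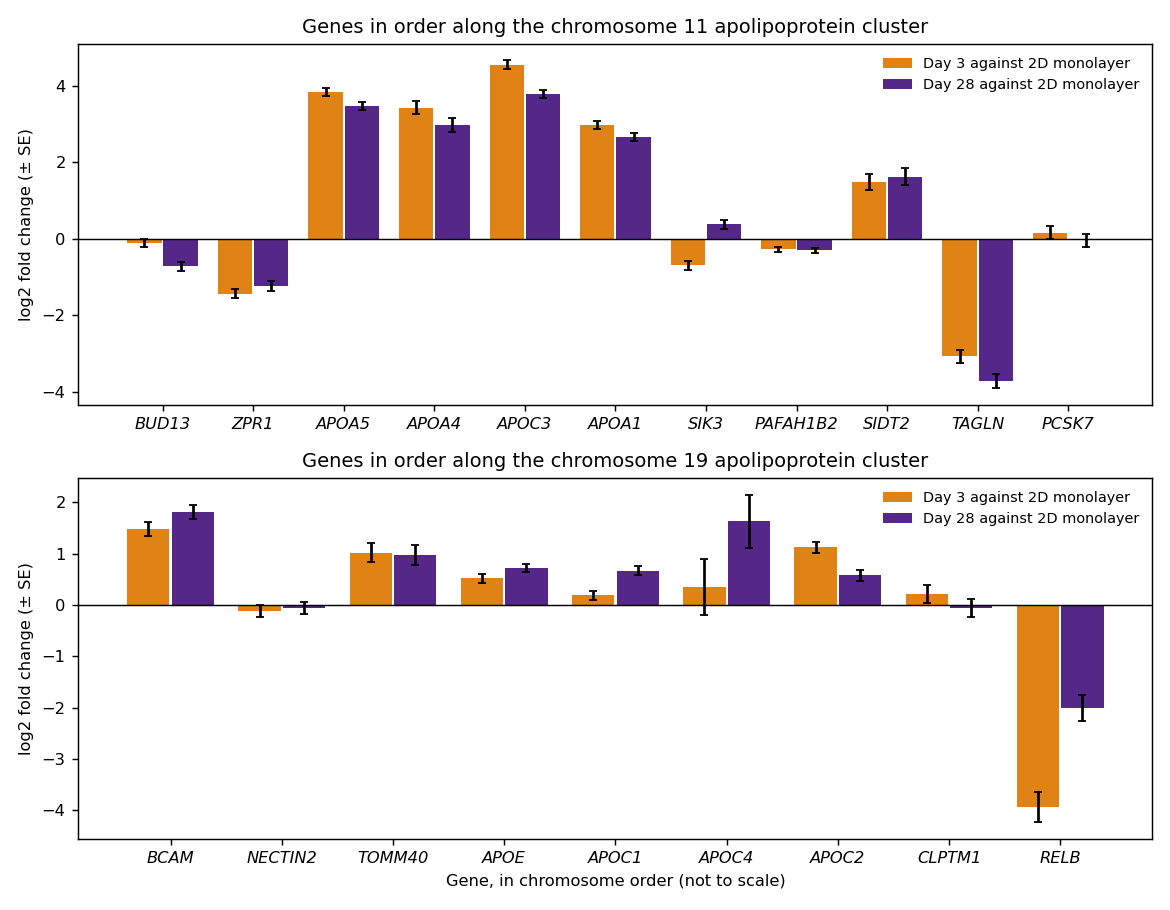
Log2 fold change against the 2D monolayer (y axis, edgeR estimate with SE from 3 libraries per group) of the genes around the chromosome 11 and chromosome 19 apolipoprotein clusters, in chromosome order and not to scale, at Day 3 and Day 28. On chromosome 11 the 4 apolipoprotein genes stand at 2.67 or more while the adjacent ZPR1 is below 0 at both days.

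Other genes were counted in lists by name or by role in lipoprotein metabolism, against the shares of all genes given above for the same days. A list of 17 genes held others with an apolipoprotein name, such as APOO and APOL6, or a link to lipoproteins, and not all are parts of lipoprotein particles. Of its 13 tested genes, 10 were higher and 1, APOL6, lower at Day 3 (median log2 1.81). At Day 28, 12 were higher and 0 lower (median 1.35). APOL1, which circulates on HDL, rose at Day 3 (log2 4.80 ± 0.71, adjusted p = 1.54e-05), as did PON1, the HDL paraoxonase (log2 4.69 ± 0.20, adjusted p = 2.49e-15). PON1 then fell by 2.19 on the log2 scale from Day 3 to Day 28 (adjusted p = 1.79e-10). Of 13 tested genes of 17 for lipoprotein remodelling and efflux, 12 were higher and 0 lower on both days (medians 1.57 and 1.80). LIPC, hepatic lipase, rose at Day 3 (log2 3.20 ± 0.12, adjusted p = 1.48e-20), and LCAT, which esterifies HDL cholesterol, rose further from Day 3 to Day 28 (log2 0.99 ± 0.14, adjusted p = 7.41e-07).

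The assembly and secretion genes were mixed: of 18 tested of 20 listed, 9 were higher and 5 lower at Day 3 (median 0.31), and 9 higher and 4 lower at Day 28 (median 0.28). PLA2G12B, a lipid-loading factor of the endoplasmic reticulum, rose at Day 3 (log2 3.23 ± 0.10, adjusted p = 1.11e-23), whereas MIA3, a receptor for large cargo at exit sites, fell by 2.30 (adjusted p = 8.13e-25). MIA3 then rose by 1.51 from Day 3 to Day 28 (adjusted p = 4.79e-19), when it was still below the monolayer (log2 -0.79, adjusted p = 8.98e-13). Of 10 receptor genes, 5 were higher and 4 lower on both days (medians 0.69 and 0.19). SDC1, a heparan sulfate proteoglycan that binds remnant particles, rose at Day 3 (log2 2.7 ± 0.08, adjusted p = 5.44e-25) and fell by 2.05 from Day 3 to Day 28 (adjusted p = 6.89e-21).

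From Day 3 to Day 28 the members' 3 higher and 7 lower compared with 3 and 7 of 13 in the list by apolipoprotein name or lipoprotein link. The counts were 7 and 5 of 18 for assembly, 3 and 3 of 13 for remodelling and 2 and 5 of 10 for receptors. Among 26 transcriptional regulators known to act on apolipoprotein genes, 17 were higher and 6 lower at Day 3 (median log2 0.56), 17 and 7 at Day 28 (0.55), and 10 and 5 between these days (0.01). CEBPA, a hepatocyte factor, rose (log2 3.33 ± 0.08, adjusted p = 1.49e-26 at Day 3) and CEBPB, its stress-responsive relative, fell by 3.06 at Day 3 (adjusted p = 2.4e-27). CEBPB then rose by 2.16 from Day 3 to Day 28 (adjusted p = 2e-22), when it was still below the monolayer (log2 -0.91, adjusted p = 4.32e-14). NR1H4, the bile acid receptor, was higher at Day 28 (log2 2.30, adjusted p = 1.07e-19) and FOXA2, a liver-enriched forkhead factor, fell by 1.37 (adjusted p = 1.75e-10). HNF4A, named for a motif searched above and after its values were seen, rose at Day 3 (log2 1.34, adjusted p = 1.25e-12).

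Closeness of profile was measured as the root mean square difference between 2 genes' 7 group means of log2 CPM, each centred on its own mean, so that a small value means like changes. These distances are descriptions over 7 groups that share libraries and scaling. Among the members, APOA1 and APOH were the closest pair (0.183), followed by APOC1 and APOE (0.205) and by APOA1 and MTTP (0.219). APOC3 was nearer to APOA5 (0.351) than to any other member, and the widest pairs were APOC3 with APOA2 and APOC3 with APOC1 (both 1.5). Among 7196 other genes whose mean reached 10 CPM, the nearest to APOC3 were SERPINA6 (0.221), FABP1 (0.243) and EHHADH (0.256), the nearest to APOH was DGAT1 (0.0762), and the nearest to APOA1 was AS3MT (0.0943). APOC3 thus had no neighbour as close as those of APOH or APOA1, and the same held for APOA5 (nearest SYNC, 0.209) and APOM (nearest PRODH2, 0.195).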

How the data were processed

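Equal masses of column-purified RNA went into the TempO-Seq libraries, per the labels' protocols. A single table of unnormalised counts by gene symbol was deposited by the authors. Its upstream tools, per the submitters' processing notes, include DESeq2 1.38.0, STAR 2.7.10b, fastp 0.23.2 and bcl2fastq 2.20.422, without their roles, and its build was GRCh38.p13. The way that oligos of 1 gene were merged is not given in these sources.

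The deposited counts were tested with edgeR 4.0.16 in R 4.3.3: filterByExpr (minimum count 10), TMM scaling, robust glmQLFit over all 21 libraries of 7 groups with no covariates, and glmQLFTest for 12 comparisons of 2 groups and a joint test among 6 spheroid days. P-values were adjusted by Benjamini-Hochberg over all 12345 genes tested, with a threshold of 0.05. The biological coefficient of variation was 9.62%, with 14 residual degrees of freedom. Replicate libraries differed beyond sampling noise (chi-square per degree of freedom 5.68 to 29.7), so none was counted as a repeat of another. The model was also run on simulated counts in which only a small share of genes changed, evenly up and down. In these data a far larger share was called against the monolayer, so that run does not check the scaling used here. Library totals had a median of 31997292 counts. Counting error was largest for the members with the fewest counts, APOA5 (110 to 171) and MTTP (142 to 255) in the monolayer.

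The members and gene lists were chosen with earlier results of these data known. Named were all 10 members, the neighbours in both clusters, up to 2 rising and 2 falling called genes per list whose mean reached 10 CPM, of which the text gives some, and the 3 genes nearest each member in profile. The alternatives were DESeq2's size factors, library totals alone, DESeq2 1.42.0, no filter, fits of only the groups compared, a replicate block, a fold threshold of 1.5 (glmTreat) and leaving out each library. Lists were described by counts with no set test. Promoter letters and coordinates came from RefSeq and GENCODE tables on GRCh38, and no value rests on them. Some genes of the lists are counted in them but not reported here.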

Additional observations from a re-analysis of the deposited data

How the results depend on the processing

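No member's fold change reversed its direction under any alternative. Of 840 member results under the 7 settings other than leaving out a library, 780 stayed on their side of the threshold, 52 lost and 8 gained a call, and 45 of those lost went with the fold threshold of 1.5. Of 2520 with 1 library left out, 2450 stayed, 60 lost and 10 gained a call. Every count of members called against the monolayer was kept to within 1.5 times under every setting, except that APOA2 at Day 28 was no longer called lower (0 in place of 1) with library totals alone or against a fold of 1.5. Against a fold of 1.5, the members called higher than the monolayer were 7, 9, 7, 8, 9 and 8 on Days 3, 7, 10, 14, 21 and 28. Of all 12345 genes tested, 3053 (Day 28) to 3616 (Day 7) were called higher at that fold. Against that fold, 0 members were called higher from Day 3 to Day 7, 0 lower from Day 7 to Day 10, 0 higher and 1 lower from Day 10 to Day 14, 0 higher and 0 lower from Day 14 to Day 21, 0 lower from Day 21 to Day 28, and 1 higher and 1 lower from Day 3 to Day 28. With no filter on low counts, 1 member, MTTP, was lower from Day 3 to Day 7, 1, APOM, higher from Day 7 to Day 10, and 2, APOC1 and APOH, higher from Day 14 to Day 21, and APOB was also higher from Day 10 to Day 14 (adjusted p = 0.000941). With only the groups compared in the fit, APOM was higher (count 1) and APOC3 also lower (adjusted p = 0.0254) from Day 7 to Day 10, and 3 members were lower from Day 21 to Day 28. With 1 library left out, the count from Day 7 to Day 10 was 0 to 1 higher and 2 to 4 lower, that from Day 14 to Day 21 was 1 to 2 higher, and that from Day 21 to Day 28 was 3 to 7 lower. The count of 2 from Day 7 to Day 10 came without Day 7 replicate 3, and the count of 3 from Day 21 to Day 28 without Day 28 replicate 2. The causes were not tested.

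The main fit assumed no pairing of samples by replicate number. Deviations of the 63 same-numbered pairs correlated at -0.06 to 0.10 (median 0.015), and those of 126 other pairs at -0.12 to 0.08 (median -0.007). Of 21 libraries 16 correlated best with their own number, a hint from the data and not from the design. These correlations are small and do not settle whether the numbers pair the samples. With a replicate block, 119 of 120 member results in comparisons of 2 groups kept their call, and APOB from Day 10 to Day 14 gained one (log2 0.24, adjusted p = 0.0155). Apart from the test against a fold of 1.5, every member result that changed its call was a difference of less than 1.5-fold between groups of 3 libraries. Depth limits APOA5 and MTTP most, with 110 to 171 and 142 to 255 counts in the monolayer libraries, and its part in the changed calls was not tested.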

Other observations

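APOB departed from the other apolipoprotein genes between libraries of 1 group, a pattern singled out after the values were seen. In 11 of the 12 libraries of Days 10 to 28 its deviation from the group mean of log2 CPM had the opposite sign to the median deviation of the 8 other apolipoprotein genes, and in 5 of the 9 libraries of the monolayer and Days 3 and 7. In Day 28 replicate 1 APOB deviated by -0.20 and the median of the others by 0.24, and in Day 10 replicate 3 they deviated by 0.26 and -0.09. The median deviation of all genes was between -0.010 and 0.016 in every library. The libraries of a group share their mean, so their deviations are not independent.

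The spread of the members between libraries was wider on later spheroid days. Their median coefficient of variation was 6.52% in the monolayer. It was 3.05%, 5.17%, 7.15%, 9.37%, 9.44% and 14.8% on Days 3, 7, 10, 14, 21 and 28. Over 7206 genes whose mean reached 10 CPM it was 5.43% in the monolayer, and 4.55%, 5.27%, 6.31%, 6.48%, 7.1% and 8.23% on those days. On Day 28 replicate 1 was the highest for 8 of the 10 genes and the lowest for 1, so the members' spreads there are not independent. At Day 28 the coefficient ran from 3.36% for MTTP to 23.3% for APOM, and at Day 3 from 0.172% for APOA5 to 19.9% for MTTP.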
